A study of Mus musculus with 24 samples.

Results

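The 9 genes described here handle fatty acids between the capillary and the cytosol of the adipocyte. They were the rows of the deposited expression table that carry the symbols *Lpl*, *Gpihbp1*, *Angptl4*, *Cd36*, *Slc27a1*, *Acsl1*, *Fabp3*, *Fabp4* and *Fabp5*, 9 of 49452 genes, and all 9 were found. Polyadenylated RNA was sequenced from 24 libraries of primary stromal-vascular fraction (SVF) cells, which hold adipocyte precursors together with other cells of the fat pad, to ask what loss of the lincRNA *H19* does in brown and white fat cells.

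The cells came from interscapular brown adipose tissue (BAT) or epididymal visceral white adipose tissue (vWAT) of 6- to 8-week-old male C57BL/6 mice. Each depot was nucleofected with non-targeting siRNA (siCtrl) or siRNA against *H19* (siH19), and RNA was taken before differentiation (d0) or on day 3 of differentiation (d3), with 3 libraries in each of the 8 groups. The induction medium held insulin, dexamethasone, rosiglitazone and IBMX, with indomethacin and triiodothyronine named for BAT, and the later medium held rosiglitazone for vWAT and triiodothyronine for BAT. Depot, medium and the series of library numbers therefore change together and cannot be told apart. Day and exposure to these media change together as well, since no group held d3 cells kept without them. BAT from several mice could be pooled, all knockdowns used siRNA, and nothing in the labels ties a library to a particular animal, so that p-values measure only the spread between these libraries, which may be technical. Titles of control samples include siKO, and groups were taken from the separate siRNA field, which gives a non-targeting control there. Titles of knockdown samples carry siH19_3, while the study's reagent list holds more than 1 siRNA against *H19*, and no sample title names another.

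Triglyceride carried by lipoproteins is hydrolysed in the capillary by lipoprotein lipase (LPL), which adipocytes make and which the endothelial protein GPIHBP1 holds in place. ANGPTL4 inactivates LPL. The released fatty acids enter the cell with the help of the scavenger receptor CD36 and of FATP1, the product of *Slc27a1*, are trapped as acyl-CoA by ACSL1, and are carried in the cytosol by the fatty acid binding proteins FABP4, FABP5 and FABP3. Several of these genes are textbook targets of the adipogenic receptor PPARγ, which rosiglitazone activates. FABP3 is best known from heart, muscle and stimulated brown fat.

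All levels are FPKM, in which fragments are divided by transcript length and by the sequencing yield, so that levels can be compared between genes. *H19*, the targeted RNA, was at 108 to 160 FPKM in BAT siCtrl and 2.82 to 5.20 in BAT siH19 libraries at d0, and at 83.2 to 99.7 and 12.04 to 16.9 at d3. In vWAT it was at 11.3 to 12.3 and 0.630 to 1.76 at d0 and at 8.19 to 8.90 and 0.291 to 0.966 at d3, so that siH19 left 3.35% to 15.3% of the siCtrl mean. Summed marker lists went with the labels in part. The sum of 10 adipocyte markers was 804 to 900 FPKM in BAT siCtrl at d0 and 7964 to 8442 at d3. In vWAT siCtrl it was 1203 to 1212 and then 4447 to 4736. The sum of 8 brown adipocyte markers was 16.9 to 19.9 FPKM in BAT siCtrl at d0 and 552 to 618 at d3. In vWAT siCtrl it was 32.3 to 35.6 at d0, above BAT, and 157 to 174 at d3. *Ucp1*, on that list, was at 0 in every vWAT group. The sum of 10 skeletal muscle markers was 252 to 661 FPKM across BAT and 14.3 to 50.8 across vWAT, and that of 10 macrophage markers was 90.7 to 191 and 347 to 762. Endothelial markers summed to 4.40 to 20.2 FPKM. In such bulk RNA, fewer cells of a type and less RNA per cell cannot be told apart. Relative depth, read from the steps between low values, was 0.84 to 1 in BAT and 1.03 to 1.19 in vWAT, the numbers of reads were not in the table, and no library stood apart (Pearson r of replicates across genes 0.988 to 0.991).

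Each comparison was tested with limma on log2(FPKM + 1) for genes with at least 1 FPKM in at least 3 libraries, and calls needed a 1.3-fold change or more together with an adjusted p (Benjamini-Hochberg) below 0.05. Fold changes below are on this log2 scale with their standard error (SE) unless given as a ratio of mean FPKM, and the pseudocount of 1 makes them smaller for genes of low level. None of the members was listed at 0 in any library. *Lpl*, *Angptl4*, *Cd36*, *Slc27a1*, *Acsl1*, *Fabp4* and *Fabp5* passed the filter in all 13 comparisons. *Gpihbp1* passed only with vWAT d3 libraries, which hold its highest values, and *Fabp3* passed in all but the comparison within vWAT at d3. Where a member passed only through the group in which it is high, it had to differ, and its adjusted p is then given from the fit with no filter and it enters no count of rises or falls. This holds for *Gpihbp1* in each comparison of days or depots in which it was tested, and for *Fabp3* between days in vWAT and between depots at d3.

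Promoter sequence from RefSeq (GRCm38.p6) was at hand for 4 of the 9 members, *Fabp3*, *Cd36*, *Acsl1* and *Slc27a1*, with 7 start sites in all. *Lpl*, *Gpihbp1*, *Angptl4*, *Fabp4* and *Fabp5* had no entry. The 250 bases before each start were searched on both strands for AGGTCANAGGTCA, the direct repeat bound by PPAR and RXR, for its element AGGTCA, which the repeat contains, and for TATAAA and CCAAT. The 3 windows below are shown because their genes were among those with the largest rise from d0 to d3 and hold a match. They lie on chr5:17835897-17836146 (minus strand), chr8:46490716-46490965 (plus strand) and chr8:71568621-71568870 (plus strand), run from 5′ to 3′ towards the start, and have the matches in capitals:
Cd36: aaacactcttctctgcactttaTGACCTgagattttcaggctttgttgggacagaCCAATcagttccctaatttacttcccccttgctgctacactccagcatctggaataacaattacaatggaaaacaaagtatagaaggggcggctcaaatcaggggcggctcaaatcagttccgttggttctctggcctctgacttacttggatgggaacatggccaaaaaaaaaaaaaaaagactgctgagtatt
Acsl1: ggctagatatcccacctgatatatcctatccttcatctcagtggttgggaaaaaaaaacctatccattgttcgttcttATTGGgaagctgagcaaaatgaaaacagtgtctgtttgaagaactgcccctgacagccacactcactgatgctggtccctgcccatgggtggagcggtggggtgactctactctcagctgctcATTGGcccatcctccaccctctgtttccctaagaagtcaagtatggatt
Slc27a1: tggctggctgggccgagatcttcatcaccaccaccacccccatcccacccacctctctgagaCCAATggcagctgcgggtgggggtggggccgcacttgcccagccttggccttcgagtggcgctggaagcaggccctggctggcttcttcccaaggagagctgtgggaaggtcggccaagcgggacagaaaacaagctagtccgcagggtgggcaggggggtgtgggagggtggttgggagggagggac
The *Cd36* window belongs to a start that lies inside the annotated span of the gene, not at its 5′ end. It holds AGGTCA on the opposite strand, 228 bases before that start, and CCAAT at 195 bases. The *Acsl1* window, which belongs to the downstream of its 2 starts, holds CCAAT on the opposite strand at 172 and 49 bases, and the *Slc27a1* window, at the most upstream of its 3 starts, holds CCAAT at 188 bases. The most downstream *Slc27a1* start has CCAAT at 128 bases in a window not shown, since 1 is printed per gene. The direct repeat was in none of the 7 windows and in 0.0335% of all 32851 promoters of this length, AGGTCA in 14.0%, TATAAA in 12.4% and CCAAT in 33.8%. These are matches of letters only and say nothing of binding.

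**Figure D1:**
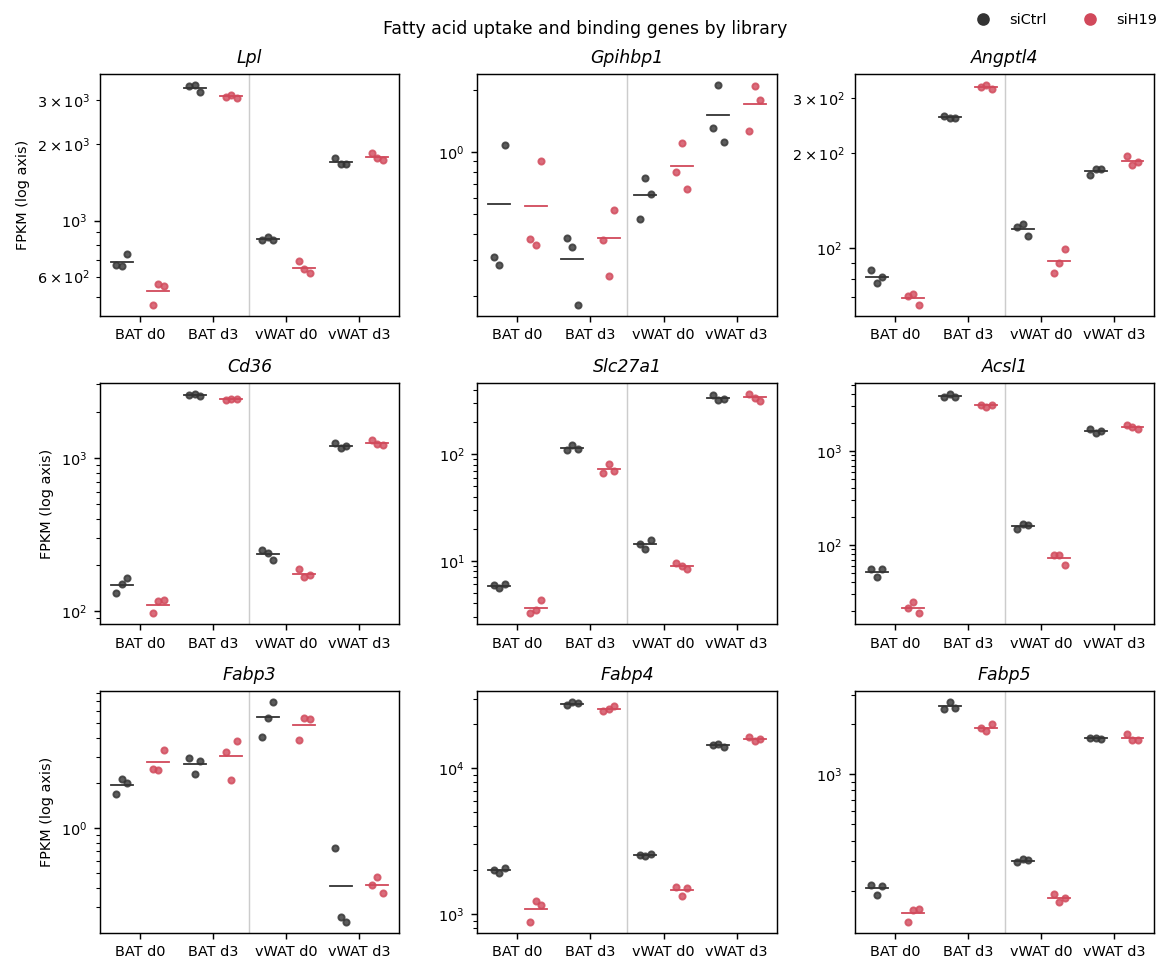
FPKM of the 9 genes in the 24 libraries, with a logarithmic vertical axis that differs between panels, 1 point per library and the group mean as a line, siCtrl in dark grey and siH19 in red. *Slc27a1* and *Gpihbp1* are the panels in which vWAT stands above BAT at d3, and *Fabp3* is the panel in which vWAT falls from d0 to d3.

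From d0 to d3 the 7 genes that passed the filter throughout rose in both depots, led in BAT by the acyl-CoA synthetase *Acsl1* and in vWAT by the transporter *Slc27a1*. In BAT siCtrl cells 7 of these 7 rose, against 29.9% of all tested genes that rose and 35.3% that fell. *Fabp3*, also tested there, was not called, so that 7 of the 8 members tested rose. In vWAT siCtrl cells 7 of 7 rose, against 26.3% and 23.9% of all genes. The median change of the 7 that passed throughout was 3.80 in BAT and 2.44 in vWAT, with a median over all tested genes of −0.10 and 0.01. The siH19 cells gave 7 of 7 that rose in BAT (30.8% of genes rose and 29.8% fell) and 7 of 7 in vWAT (28.2% and 24.5%). *Fabp3* was again tested and not called in BAT. Precursor and stromal markers fell over the same interval, 9 of 10 in BAT and 6 of 10 in vWAT siCtrl cells, where 2 of 10 rose (*Ly6a* and *Pi16*), and 8 of 9 adipocyte markers tested rose in each depot. Of the macrophage markers 1 of 9 rose and 5 fell in BAT, and in vWAT 5 of 10 rose and 3 fell, with a sum that went from 347 to 391 FPKM at d0 to 603 to 654 at d3. Macrophages are known to express *Lpl*, *Cd36*, *Fabp4* and *Fabp5*, and their part in the rise in vWAT was not tested.

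*Lpl*, the lipase itself (chr8:68880491-68907448, plus strand), was already abundant at d0. Its FPKM in the 3 BAT siCtrl libraries was 666, 658 and 736 at d0 and 3394, 3432 and 3208 at d3, a 4.87-fold rise of the mean (log2 2.28, SE 0.05, limma Benjamini-Hochberg adjusted p = 1.1e-07). In vWAT it went from 840, 858 and 834 to 1773, 1678 and 1674, a 2.02-fold rise (log2 1.02, SE 0.03). The libraries of the 2 days did not overlap in either depot, and BAT began below vWAT and ended above it.

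*Angptl4* (chr17:33773750-33781575, minus strand), the inhibitor of the lipase, had the smaller rise in both depots. BAT siCtrl libraries went from 85.3, 77.5 and 80.8 to 262, 259 and 259 FPKM (3.2-fold, log2 1.67, SE 0.04), and vWAT from 116, 119 and 110 to 171, 179 and 178 FPKM (1.53-fold, log2 0.61, SE 0.04). The ratio of *Lpl* to *Angptl4* FPKM within a library was 7.80 to 9.10 in BAT siCtrl at d0 and 12.4 to 13.3 at d3, and 7.21 to 7.61 and then 9.40 to 10.4 in vWAT.

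*Gpihbp1* (chr15:75596628-75599481, plus strand), which endothelial cells express, stayed near the limit of the filter. Its FPKM was 0.310, 0.283 and 1.08 in BAT siCtrl at d0 and 0.384, 0.345 and 0.183 at d3, where it was not tested. In vWAT siCtrl it was 0.474, 0.747 and 0.628 at d0 and 1.3, 2.11 and 1.11 at d3, without overlap (log2 0.62, SE 0.16, limma Benjamini-Hochberg adjusted p = 0.036 with no filter). In vWAT siH19 cells the change was 0.54 (SE 0.15, adjusted p = 0.045 with no filter). Endothelial markers summed to 15.3 to 20.2 FPKM in vWAT siCtrl at d0 and to 11.8 to 12.7 at d3, with 3 of 6 tested lower and 1 (*Cldn5*) higher. Their part in the *Gpihbp1* levels was not tested.

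Both uptake genes rose steeply, *Slc27a1* from a low level at d0 and *Cd36* from a much higher one. Among all genes *Cd36* ranked 657 to 833 in BAT siCtrl and 465 to 539 in vWAT siCtrl libraries at d0. *Cd36* (chr5:17781690-17888801, minus strand) went from 131, 150 and 164 to 2565, 2616 and 2520 FPKM in BAT siCtrl libraries (17.3-fold, log2 4.11, SE 0.08) and from 251, 238 and 215 to 1244, 1161 and 1193 in vWAT (5.11-fold, log2 2.35, SE 0.06). *Slc27a1* (chr8:71568882-71587302, plus strand) went from 5.89, 5.51 and 6.11 to 109, 121 and 112 FPKM in BAT (19.5-fold, log2 4.07, SE 0.06) and from 14.4, 13.0 and 15.8 to 361, 324 and 328 in vWAT (23.4-fold, log2 4.46, SE 0.08). *Slc27a1* thus stayed the least expressed of the 7 genes that rose in BAT, and in vWAT it passed *Angptl4* between the 2 days.

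*Acsl1* (chr8:46471037-46536051, plus strand), which activates fatty acids to acyl-CoA, had the largest rise of the members in BAT. Its FPKM was 55.1, 45.5 and 55.7 at d0 and 3758, 4076 and 3791 at d3 in siCtrl libraries, a 74.4-fold rise (log2 6.19, SE 0.08). In vWAT it went from 147, 168 and 162 to 1706, 1561 and 1645 (10.3-fold, log2 3.35, SE 0.06). Among all genes of a library it moved from rank 2009 to 2414 at d0 to rank 12 at d3 in BAT siCtrl, and from 697 to 820 to 44 to 61 in vWAT. In BAT siH19 cells, where it started lower, the mean rose 142-fold.

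Of the binding proteins, *Fabp4* (chr3:10204088-10208576, minus strand) outweighed the others in every library. It was at 2006, 1906 and 2073 FPKM in BAT siCtrl at d0 and at 27184, 28419 and 27863 at d3 (13.9-fold, log2 3.80, SE 0.04), where it was the gene with the highest FPKM of the whole table in all 6 BAT libraries, at 3.09% to 3.46% of the summed FPKM. In vWAT siCtrl libraries it went from 2530, 2519 and 2560 to 14527, 14709 and 13958 (5.68-fold, log2 2.5, SE 0.03) and ranked 3 to 4. *Fabp5* (chr3:10012548-10016607, plus strand), a neighbour of *Fabp4* on chromosome 3, followed at a lower level, from 218, 190 and 215 to 2466, 2707 and 2489 FPKM in BAT (12.3-fold, log2 3.62, SE 0.07) and from 296, 309 and 306 to 1661, 1662 and 1636 in vWAT (5.44-fold, log2 2.44, SE 0.03). Across all 24 libraries *Fabp4* made up 86.9% to 93.3% of the FPKM of the 3 binding protein genes.

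*Fabp3* (chr4:130308595-130315463, plus strand) went its own way at levels below 7 FPKM. In vWAT siCtrl it was at 4.03, 5.45 and 6.90 FPKM at d0 and at 0.743, 0.254 and 0.238 at d3, and the siH19 libraries gave 3.84, 5.44 and 5.37 and then 0.418, 0.475 and 0.370. The days did not overlap, and the change was −2.19 (SE 0.21) with siCtrl and −2.04 (SE 0.13) with siH19 (limma Benjamini-Hochberg adjusted p = 0.00082 and 0.00018 with no filter). In BAT siCtrl it was at 1.68, 2.13 and 2.00 at d0 and at 2.92, 2.28 and 2.79 at d3. That difference of 0.32 (SE 0.11, limma Benjamini-Hochberg adjusted p = 0.032) was below 1.3-fold, and was called with a pseudocount of 0.1 (0.44, adjusted p = 0.037) or without d3 replicate 2 (0.39, adjusted p = 0.020). Skeletal muscle markers, which belong to another cell type known to express *Fabp3*, summed to 365 to 615 FPKM in BAT siCtrl and 33.3 to 42.7 in vWAT siCtrl at d0, and at d3 to 252 to 288 and 14.3 to 17.6. Their part in the *Fabp3* levels was not tested. The gene overlaps *Zcchc17* and *Gm10570* on the opposite strand, as *Acsl1* does *Gm45244*, and whether the counting used strand is not given in the sources used here; the pseudogene *Fabp3-ps1* reached at most 0.163 FPKM.

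**Figure D2:**
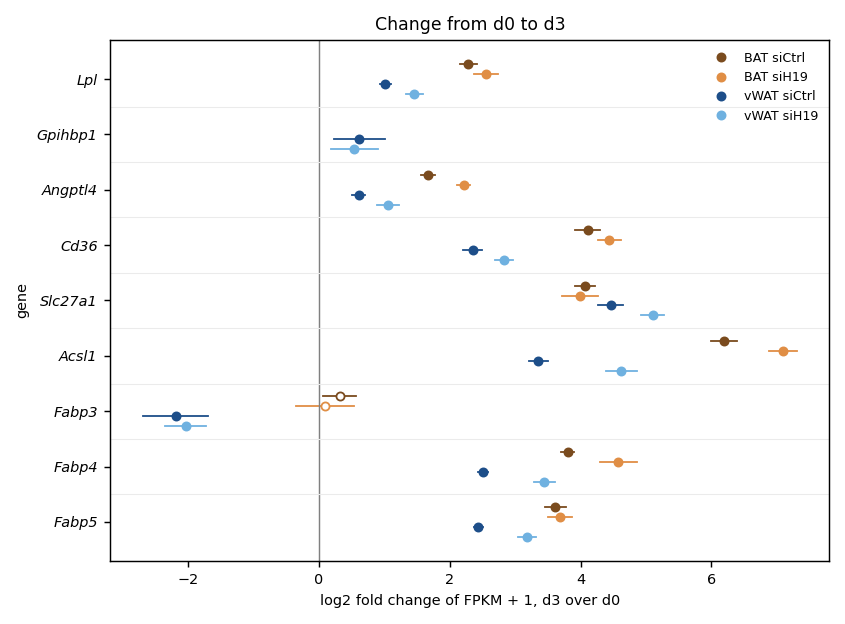
Change from d0 to d3 for each gene in the 4 combinations of depot and siRNA, as log2 fold change of FPKM + 1 with the 95% confidence interval of limma, filled where called and open where not; *Gpihbp1* is not drawn in BAT, where it was not tested, and in vWAT *Gpihbp1* and *Fabp3* passed the filter only through the day on which they are high. *Acsl1* lies at 6.19 and 7.09 in BAT and at 3.35 and 4.62 in vWAT, and *Fabp3* lies below 0 in vWAT only.

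The other genes of the pathway moved in a mixed way. Of 51 genes for lipoprotein handling, further transporters, acyl-CoA synthetases, thioesterases and binding proteins, 31 were tested in BAT siCtrl cells, of which 19 (61.3%) rose and 10 (32.3%) fell, beside 29.9% and 35.3% of all genes, and 36 in vWAT siCtrl cells, of which 21 (58.3%) rose and 9 fell, beside 26.3% and 23.9%. The shares that fell were thus near those of all genes. The largest rises in BAT were *Ffar2*, a receptor for short-chain fatty acids (4.44), *Acss2*, which activates acetate (4.10), and the acyl-CoA binding protein gene *Dbi* (3.31). The same 3 genes led in vWAT, with *Acss2* at 3.19, *Ffar2* at 3.08 and *Dbi* at 2.34. Falls were led in BAT by *Apoe* (−1.82), *Slc27a6* (−1.59) and *Furin* (−1.45), a protease that cleaves LPL and ANGPTL4, and in vWAT by *Acsl4* (−2.01), *Mfsd2a* (−1.37) and the lipoprotein receptor gene *Lsr* (−1.09). The siH19 cells gave 20 that rose and 10 that fell of 32 in BAT and 19 and 9 of 35 in vWAT. *Sort1* (3.5) joined *Ffar2* (4.33) and *Acss2* (3.53) in BAT siH19 cells, with *Furin* at −1.48, *Slc27a6* at −1.37 and *Apoe* at −1.18. In vWAT siH19 cells *Ffar2* was at 3.80, *Acss2* at 3.75, *Dbi* at 2.72, *Acsl4* at −2.04, *Furin* at −1.17 and *Lsr* at −1.13.

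Between depots, all members but *Slc27a1* and *Gpihbp1* had a lower mean FPKM in BAT at d0 and a higher one at d3. At d0, siCtrl BAT cells had less *Cd36*, *Fabp3*, *Fabp5*, *Slc27a1*, *Acsl1* and *Angptl4* than vWAT cells, 6 of 8 tested lower and none higher against 21.0% and 10.2% of all genes. At d3, *Lpl*, *Cd36*, *Fabp4*, *Fabp5*, *Acsl1* and *Angptl4* were higher in BAT and *Slc27a1* was lower, 6 and 1 of the 7 that passed throughout, against 16.5% of all genes higher and 32.1% lower. Since many genes were lower in BAT, the libraries were also scaled by median ratios, which moved the median of all genes from −0.13 to −0.02 at d0 and from −0.16 to −0.04 at d3, and raised the share of calls that were higher in BAT from 32.8% to 48.0% and from 33.9% to 45.3%. No member changed its direction with this scaling, while *Angptl4* at d0 lost its call (−0.37 in place of −0.50).

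*Acsl1* made the widest turn, from 32.7% of the vWAT mean at d0 (log2 −1.60, SE 0.09) to 2.37 times it at d3 (log2 1.24, SE 0.05). *Cd36* went from −0.66 (SE 0.09) to 1.10 (SE 0.04), *Fabp5* from −0.55 (SE 0.06) to 0.63 (SE 0.04) and *Fabp3* from −1.12 (SE 0.17) to 1.39 (SE 0.16, limma adjusted p = 0.0017 with no filter). *Lpl* (−0.30) and *Fabp4* (−0.35) were below 1.3-fold at d0 and at 0.97 and 0.95 at d3. In each of these genes the 3 BAT libraries lay below the 3 vWAT libraries at d0 and above them at d3. The share of all genes that did so was not computed.

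*Slc27a1* stayed lower in BAT on both days, by log2 −1.17 (SE 0.09) at d0 and −1.56 (SE 0.06) at d3, when the BAT mean was 33.7% of the vWAT mean. *Gpihbp1* at d3 was at 0.183 to 0.384 FPKM in BAT and 1.11 to 2.11 in vWAT (log2 −0.93, SE 0.16, limma adjusted p = 0.0073 with no filter). The depot by day interaction, tested with limma on the 12 siCtrl libraries, was called above 0 for 6 and below 0 for 1 of the 7 members that passed throughout, and above 0 for *Fabp3*, against 24.9% and 28.1% of all genes. It was 2.84 (SE 0.11) for *Acsl1*, 2.5 (SE 0.25) for *Fabp3*, 1.76 (SE 0.11) for *Cd36*, 1.3 (SE 0.05) for *Fabp4*, 1.27 (SE 0.06) for *Lpl*, 1.18 (SE 0.07) for *Fabp5*, 1.06 (SE 0.06) for *Angptl4*, and −0.39 (SE 0.10) for *Slc27a1*. The *Slc27a1* value lost its call with a pseudocount of 0.1 (−0.28, adjusted p = 0.052). *Gpihbp1* was at −0.84 (SE 0.28) and did not pass with no filter (adjusted p = 0.052).

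Other cells differed between the depots too. Of 9 macrophage markers tested at d3, 9 were lower in BAT, with a sum of 150 to 184 FPKM against 603 to 654 in vWAT, and 8 of 10 precursor and stromal markers were lower, while 7 of 7 skeletal muscle markers and 6 of 9 adipocyte markers were higher and the other 3 (*Retn*, *Cfd* and *Dgat2*) lower. Macrophages are known to express *Lpl*, *Cd36*, *Fabp4* and *Fabp5*. Their part in the depot difference was not tested. Of 33 other pathway genes tested at d0, 2 (6.06%) were higher in BAT (*Slc27a6* 0.49 and *Furin* 0.40), beside 10.2% of all genes. Lower were 15 (45.5%), beside 21.0%, led by *Apoc1* (−3.01), *Angptl8* (−2.24) and *Lsr* (−2.03). Of 33 tested at d3, 12 (36.4%) were higher, beside 16.5% of all genes, led by *Vldlr* (1.46), *Got2* (1.40) and *Acot2* (1.08). Lower were 13 (39.4%), near the 32.1% of all genes. These were led by *Apoe* (−2.83), *Apoc2* (−1.79) and *Apoc1* (−1.62), genes that macrophages also express. The depot by day interaction was above 0 for 21 (56.8%) and below 0 for 8 (21.6%) of 37 such genes, beside 24.9% and 28.1% of all genes. *Got2* (1.74), *Sort1* (1.45) and *Apoc1* (1.39) lay at one end and *Apoe* (−1.61), *Apoc2* (−1.41) and *Slc27a3* (−1.34) at the other.

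**Figure D3:**
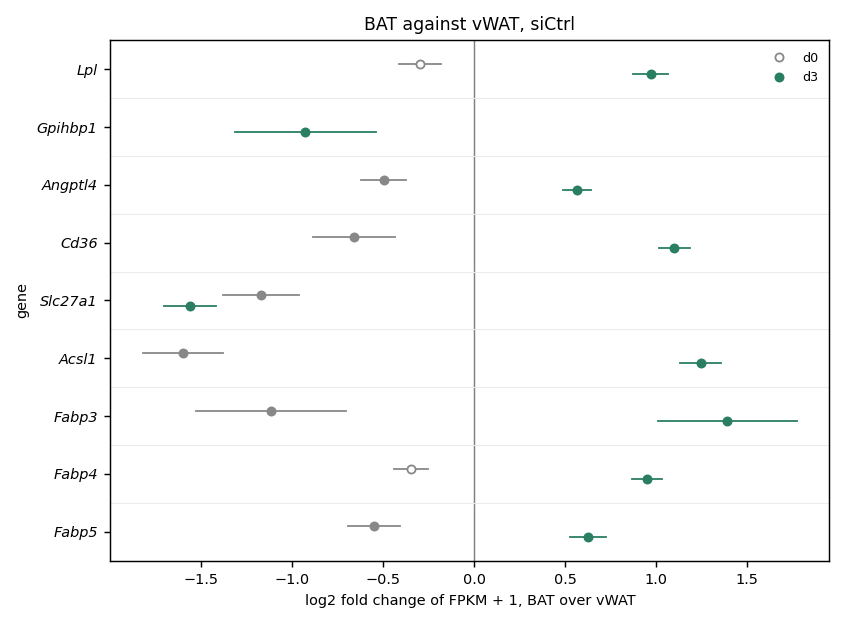
BAT against vWAT in siCtrl cells at d0 (grey) and d3 (green), as log2 fold change of FPKM + 1 with its 95% confidence interval, filled where called; at d3 *Gpihbp1* and *Fabp3* passed the filter only through the depot in which they are high. *Acsl1* passes from −1.60 to 1.24, and *Slc27a1* stays below 0 on both days.

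Before differentiation, *Acsl1*, *Fabp4*, *Fabp5* and *Slc27a1* were called lower in siH19 cells of both depots. Leaving out single libraries cost each of these calls in BAT and that of *Slc27a1* in vWAT, as given below. In BAT at d0, *Acsl1*, *Fabp4*, *Slc27a1* and *Fabp5* were called lower and none higher, 4 of 8 tested, against 1.32% of all genes lower and 0.617% higher. In vWAT at d0 the same 4 genes and *Cd36* were lower, 5 of 8, against 1.20% and 0.329%. Each pair of groups was fitted on its own libraries, and the siCtrl libraries are shared with the comparisons of days and depots above. The median of the members tested was −0.46 in BAT and −0.52 in vWAT, with −0.03 over all genes in both.

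*Acsl1* fell most. It was at 55.1, 45.5 and 55.7 FPKM in BAT siCtrl libraries and at 21.5, 24.5 and 18.8 in siH19 libraries, or 41.5% of the siCtrl mean (log2 −1.23, SE 0.12, limma Benjamini-Hochberg adjusted p = 0.014). In vWAT it was at 147, 168 and 162 and at 77.8, 78.2 and 61.5, or 45.5% (log2 −1.13, SE 0.10, adjusted p = 0.0082). The libraries with siH19 lay below all with siCtrl in both depots.

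*Fabp4* was at 2006, 1906 and 2073 FPKM in BAT siCtrl and 883, 1222 and 1145 in siH19 libraries (54.3%, log2 −0.89, SE 0.12, limma adjusted p = 0.026), and at 2530, 2519 and 2560 and then 1541, 1337 and 1497 in vWAT (57.5%, log2 −0.80, SE 0.06, adjusted p = 0.0046). *Fabp5* was at 130, 153 and 156 FPKM in BAT siH19 (log2 −0.50, SE 0.09) and at 191, 171 and 181 in vWAT siH19 libraries (log2 −0.75, SE 0.05). *Slc27a1* was at 3.22, 3.43 and 4.27 FPKM (log2 −0.56, SE 0.11) and at 9.49, 9.01 and 8.41 (log2 −0.63, SE 0.09). None of these groups overlapped with their siCtrl libraries, and the share of all genes without overlap was not computed.

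*Cd36* and *Lpl* leaned the same way in both depots at smaller size. *Cd36* was at 97.2, 116 and 118 FPKM in BAT siH19 libraries (log2 −0.42, SE 0.10, limma adjusted p = 0.086) and 188, 168 and 172 in vWAT (log2 −0.41, SE 0.07, adjusted p = 0.047). *Lpl* was at 465, 564 and 553 FPKM in BAT (log2 −0.38, adjusted p = 0.066) and 693, 641 and 618 in vWAT (log2 −0.38, adjusted p = 0.022, below 1.3-fold). *Angptl4* gave −0.23 and −0.34 (adjusted p = 0.076 and 0.077) and *Fabp3* gave 0.35 and −0.12 (adjusted p = 0.20 and 0.79), with the BAT siH19 libraries at 2.49, 2.43 and 3.33 FPKM, above the siCtrl libraries.

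The calls at d0 rest on few libraries, and over all genes they went from 245 to between 4 and 74 in BAT and from 200 to between 37 and 122 in vWAT when any 1 library was left out. In vWAT, *Acsl1*, *Fabp4* and *Fabp5* were called whichever of the 6 libraries was left out (highest adjusted p of 0.048, 0.039 and 0.037), and *Cd36* and *Slc27a1* were lost without any 1 of them (adjusted p up to 0.17 and 0.094). In BAT, *Fabp5* and *Slc27a1* were lost without any 1 of the 6 (up to 0.13 and 0.16), *Fabp4* without siCtrl replicate 1, 2 or 3 or siH19 replicate 3 (0.070 to 0.099), and *Acsl1* without siCtrl replicate 1 or 3 (0.063 and 0.069). With no filter on low values, 1 member in BAT (*Acsl1*) and 3 in vWAT (*Acsl1*, *Fabp4* and *Fabp5*) stayed called, and median-ratio scaling took the calls of *Slc27a1* in BAT (adjusted p = 0.053) and *Cd36* in vWAT (0.052) without turning any direction. The share of vWAT calls that were higher went from 21.5% to 32.3% with that scaling.

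Adipocyte markers were lower with siH19 at d0 as well, 7 of 9 tested in each depot. Their sum was 804 to 900 FPKM in BAT siCtrl and 308 to 450 in siH19, and 1203 to 1212 and 696 to 786 in vWAT. Macrophage markers were lower in BAT, 4 of 9 tested with sums of 153 to 191 and 112 to 115 FPKM, and not in vWAT, 0 of 10 with sums of 347 to 391 and 349 to 384. Their part in the lower levels was not tested. Of the other pathway genes, *Apoe* (−0.88) and *Sort1* (−0.49), a sorting receptor, were lower in BAT, 2 of 31 tested (6.45%, beside 1.32% of all genes). In vWAT 7 of 35 were lower (20%, beside 1.20% of all genes), led by *Acss2* (−0.91), *Ffar2* (−0.69) and *Scarb1* (−0.63), and none was higher in either depot.

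**Figure D4:**
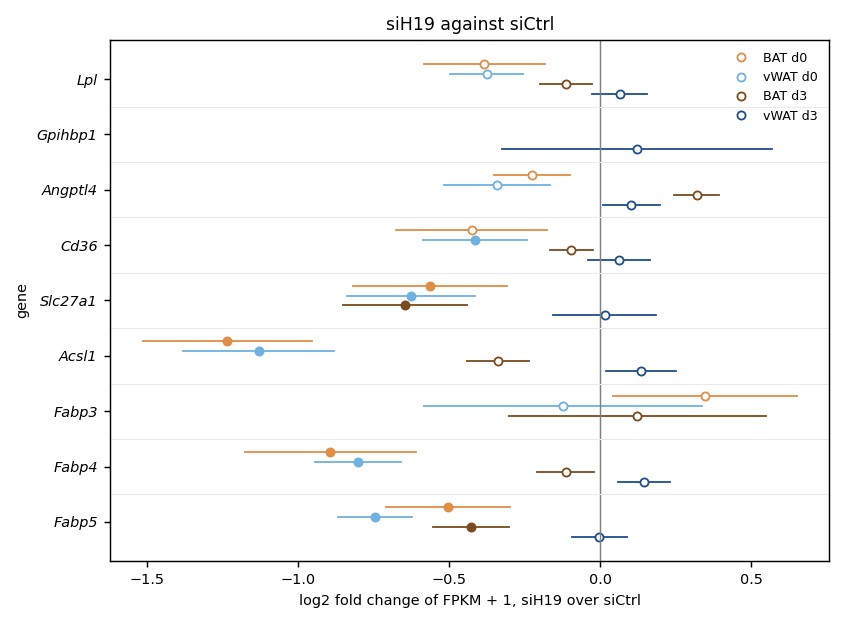
siH19 against siCtrl for each gene in both depots at d0 (light) and d3 (dark), as log2 fold change of FPKM + 1 with the 95% confidence interval, filled where called. At d0 *Acsl1*, *Fabp4*, *Fabp5* and *Slc27a1* lie at −0.50 or below in both depots, and at d3 the vWAT points lie between −0.00 and 0.14.

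At d3 the knockdown cells of the 2 depots parted. In BAT 2 members were called lower, *Slc27a1* and *Fabp5*, and none higher, of 8 tested, against 2.18% of all genes lower and 6.39% higher. *Slc27a1* was at 109, 121 and 112 FPKM in siCtrl and 66.1, 81.7 and 70.1 in siH19 libraries, or 63.8% of the siCtrl mean (log2 −0.65, SE 0.09, limma Benjamini-Hochberg adjusted p = 0.0057). *Fabp5* was at 2466, 2707 and 2489 and at 1888, 1810 and 1995, or 74.3% (log2 −0.43, SE 0.05, adjusted p = 0.0047). Both calls held in every alternative tried, leaving out libraries included, with adjusted p of at most 0.027 and 0.022.

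*Acsl1* and *Angptl4* passed the adjusted p but not the fold. *Acsl1* was at 3758, 4076 and 3791 FPKM in siCtrl and 3121, 2963 and 3116 in siH19 libraries (79.1%, log2 −0.34, SE 0.04, limma adjusted p = 0.0053), and reached 1.3-fold with median-ratio scaling (−0.39). *Angptl4* was at 262, 259 and 259 and at 324, 330 and 321 (125%, log2 0.32, SE 0.03, adjusted p = 0.0029), the only member that stood higher in BAT siH19 libraries without overlap. By adjusted p alone 3 members were lower and 1 higher, against 5.61% and 10.6% of all genes. The share of all calls that were higher fell from 74.6% to 60.5% with median-ratio scaling, so that the balance of directions depends on the scaling, while *Angptl4* stayed at 0.27 and *Slc27a1* and *Fabp5* at −0.70 and −0.48.

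*Fabp4*, *Lpl* and *Cd36* were not called in BAT at d3. *Fabp4* was at 24834, 25401 and 26897 FPKM with siH19 (92.4% of the siCtrl mean, log2 −0.11, 95% interval −0.21 to −0.02, limma adjusted p = 0.10). *Lpl* was at 3085, 3137 and 3056 (92.5%, interval −0.20 to −0.03, adjusted p = 0.081) and *Cd36* at 2374, 2430 and 2407 (93.6%, interval −0.16 to −0.02, adjusted p = 0.076). Their siH19 libraries lay below all siCtrl libraries without passing the test, and the share of all genes that did so was not computed. *Fabp3* was at 0.12 (interval −0.30 to 0.55) with overlapping groups, and *Gpihbp1*, not tested, was at 0.374, 0.25 and 0.523 FPKM.

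In vWAT at d3 limma called 0 of 8 members, in a comparison in which 0.0229% of genes were lower and 0.00764% higher. *Fabp4* was at log2 0.14 (SE 0.04, limma adjusted p = 0.35), *Acsl1* at 0.13 (SE 0.05, adjusted p = 0.44) and *Angptl4* at 0.10 (SE 0.04, adjusted p = 0.47). *Slc27a1* was at 371, 340 and 315 FPKM against 361, 324 and 328 (0.02, 95% interval −0.15 to 0.19), and *Fabp5* at 1736, 1613 and 1602 against 1661, 1662 and 1636 (−0.00, interval −0.09 to 0.09). *Lpl* (0.07) and *Cd36* (0.06) had intervals that reached to 0.16, so that a change of over 1.3-fold was outside the interval for all of these. *Gpihbp1* (0.12, interval −0.32 to 0.57) was less well bounded.

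The depot by siRNA interaction tested whether BAT and vWAT differed at d3. It was below 0 for *Slc27a1* (−0.66, SE 0.12), *Acsl1* (−0.47, SE 0.07), *Fabp5* (−0.42, SE 0.07), *Fabp4* (−0.26, SE 0.05) and *Lpl* (−0.18, SE 0.05) and above 0 for *Angptl4* (0.22, SE 0.05). These were 5 and 1 of 9 tested, and 5 and 1 of the 7 that passed throughout. Of all genes 3.52% were below and 7.02% above 0, by limma at an adjusted p under 0.05. The *Slc27a1*, *Acsl1* and *Fabp5* values held in every alternative, with adjusted p of at most 0.022, 0.028 and 0.014. The other 3 did not. With all 24 libraries in 1 fit the adjusted p was 0.16 for *Fabp4*, 0.20 for *Lpl* and 0.065 for *Angptl4*. With no filter it was 0.26 for *Fabp4* and 0.16 for *Lpl*. With median-ratio scaling *Angptl4* gave 0.14 (adjusted p = 0.082), and the share of all calls above 0 went from 66.6% to 45.6%. *Lpl* was also lost without any 1 of 10 of the 12 libraries, all but BAT siCtrl replicate 3 and vWAT siCtrl replicate 1 (adjusted p up to 0.12).

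The siH19 effect in BAT also differed between days for *Acsl1* (interaction 0.90, SE 0.13), *Fabp4* (0.78, SE 0.14) and *Angptl4* (0.54, SE 0.06), 3 of 8 above 0 and none below, against 7.79% and 1.27% of all genes. *Acsl1* and *Fabp4* were less reduced at d3 than at d0, and *Angptl4* passed from −0.23 to 0.32. The knockdown itself was weaker at d3, with an interaction of 1.99 for *H19* (SE 0.29, limma adjusted p = 0.0028). Mean *H19* in BAT siH19 libraries was 4.36 FPKM at d0 and 13.7 at d3. The part of this in the day difference of the members was not tested. *Slc27a1* (−0.08, 95% interval −0.38 to 0.22) and *Fabp5* (0.08, −0.16 to 0.31) gave intervals on both sides of 0. The share of calls above 0 over all genes went from 86.0% to 61.1% with median-ratio scaling, under which *Acsl1*, *Fabp4* and *Angptl4* stayed called.

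Other markers moved in BAT at d3 too. Of the brown adipocyte markers 5 of 7 tested were lower with siH19, with a sum of 552 to 618 FPKM in siCtrl and 317 to 379 in siH19 libraries, and 4 of 8 macrophage markers were lower, with sums of 150 to 184 and 90.7 to 106. Precursor and stromal markers were higher, 5 of 8, with sums of 829 to 943 and 1212 to 1321, and adipocyte markers were lower in 1 of 9, with sums of 7964 to 8442 and 7132 to 7430. Their part in the *Slc27a1* and *Fabp5* levels was not tested. Of 30 other pathway genes tested, *Acss2* (−0.95), *Ffar2* (−0.50) and *Ffar4* (−0.42) were lower (10%, beside 2.18% of all genes). *Slc27a3* (0.59) and *Pmp2* (1.08), a binding protein gene known from myelin, were higher (6.67%, near the 6.39% of all genes). In vWAT at d3 0 of 34 were called. For the depot by siRNA interaction, 4 of 35 (11.4%) were above 0, beside 7.02% of all genes, led by *Slc27a3* (0.85), *Acsl4* (0.61) and *Acsl5* (0.38). Below 0 were 6 (17.1%), beside 3.52%, led by *Acss2* (−0.61), *Ffar4* (−0.56) and *Ffar2* (−0.54). For the day by siRNA interaction in BAT, 5 of 34 (14.7%) were above 0, beside 7.79% of all genes, led by *Pmp2* (0.78), *Apoe* (0.63) and *Sort1* (0.50). Below 0 were 3 (8.82%), beside 1.27%, namely *Vldlr* (−0.58), *Acss2* (−0.57) and *Acot13* (−0.37).

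Ratios taken within a library do not depend on how libraries are scaled. The ratio of *Fabp4* to *Fabp5* FPKM in BAT at d3 was 10.5 to 11.2 in siCtrl and 13.2 to 14.0 in siH19 libraries, and at d0 it was 9.20 to 10.04 and 6.78 to 7.99, so that siH19 cells had the lower ratio at d0 and the higher at d3. In vWAT it was 8.14 to 8.55 and 7.82 to 8.26 at d0 and 8.53 to 8.85 and 9.45 to 9.90 at d3. The ratio of *Lpl* to *Angptl4* in BAT at d3 was 12.4 to 13.3 in siCtrl and 9.52 in all 3 siH19 libraries, close to the 9.40 to 10.4 and 9.31 to 9.68 of vWAT. Both ratios were chosen after their values were seen. In 8 two-sided exact permutation tests of siH19 against siCtrl, 4 reached 0.1, the smallest p that 3 against 3 libraries allow (0.20 after Benjamini-Hochberg adjustment), and the design cannot reach 0.05.

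**Figure D5:**
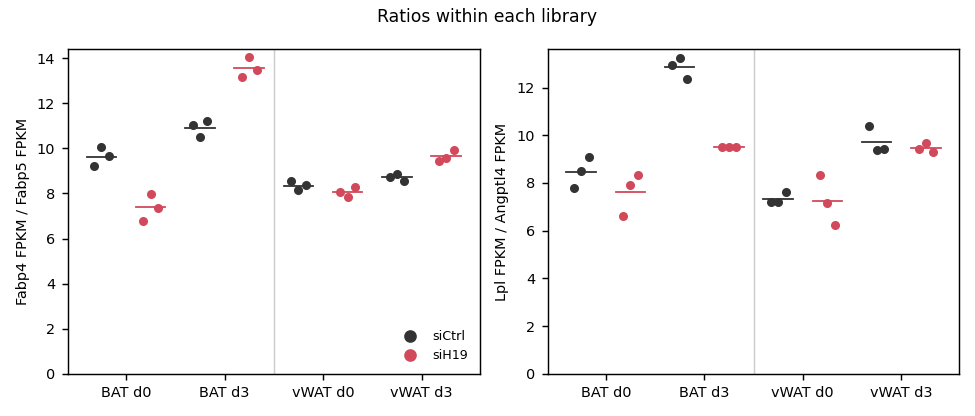
Ratio of *Fabp4* to *Fabp5* and of *Lpl* to *Angptl4* FPKM within each library, 1 point per library with the group mean as a line, siCtrl in dark grey and siH19 in red, on axes that start at 0. In BAT at d3 the siH19 libraries lie at 13.2 to 14.0 and at 9.52, apart from the siCtrl libraries at 10.5 to 11.2 and 12.4 to 13.3.

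Ordered by mean FPKM, *Lpl*, *Cd36*, *Fabp4*, *Fabp5* and *Acsl1* were highest in BAT siCtrl at d3 and lowest in BAT siH19 at d0. For *Acsl1* and *Fabp4* every neighbouring pair of groups was apart, and the share of all genes with such an order was not computed. *Angptl4* was highest in BAT siH19 at d3 (325 FPKM) and next in BAT siCtrl at d3 (260 FPKM). *Slc27a1* was highest in the 2 vWAT d3 groups, whose libraries overlapped (342 and 338 FPKM), and *Fabp3* in the 2 vWAT d0 groups, which also overlapped (5.46 and 4.88 FPKM). The 9 genes together took 0.232% to 0.302% of the summed FPKM in BAT siH19 at d0 and 4.89% to 5.07% in BAT siCtrl at d3.

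Over the 24 libraries, the genes nearest to each member in Pearson r of log2(FPKM + 1), among 14694 genes that passed the filter, are given as a description, since the libraries share depot and day. *Cd36* was nearest to *Fitm2* (0.999), which partitions triglyceride into droplets, *Gnai1* and *Abhd15* (0.998 each). *Fabp4* was nearest to *Adig*, *Car5b* (0.998 each) and *Pcx* (0.997), *Fabp5* to *Bscl2* (0.998), the gene of seipin, *Gpd1* and *Ak3* (0.997 each), and *Acsl1* to *Pnpla2* (0.998), the triglyceride lipase, *Echs1* (0.998) and *Adhfe1* (0.997). *Lpl* was nearest to *Sort1*, *Adipor2* (0.997 each) and *Enpp2* (0.996). *Slc27a1* was nearest to *Adh1* (0.997), *Rnf14* (0.992) and *Sult1a1* (0.990), and *Angptl4* to *Pex5* (0.990), *Plin2* (0.988), a droplet coat gene, and *Bcar3* (0.988). *Fabp3* (*Trib1* 0.953, *Hk2* 0.942, *Ifrd1* 0.936) and *Gpihbp1* (*Plscr4* 0.896, *Ankrd35* 0.883, *Dync2li1* 0.882) had no gene as close. Among the members themselves r was 0.995 between *Fabp4* and *Fabp5*, 0.993 or less elsewhere, 0.814 between *Lpl* and *Slc27a1*, and below 0 between *Fabp3* and each of the other 8.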

How the data were processed

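RNA of 24 samples was enriched for poly(A) and made into libraries. Whether these were directional is not settled here, since the paper names a directional kit for its tissue samples and not for these cells. Per the labels and methods, the authors aligned reads to GRCm38 with TopHat2 2.0.10 and estimated expression with Cufflinks. The submitters' processing notes name Cufflinks 2.2.1, R 3.2.2 and STAR, whose role is not given in the sources used here. The values the authors deposited were read as FPKM, as Cufflinks gives them, though the table itself names no unit. Summed FPKM per library was 710794 to 841456. FPKM give no read counts, and a rise of abundant genes lowers all others.

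Groups came from the sample labels, and 0 columns were left out. Comparisons were fitted with limma 3.58.1 (R 4.3.3) as described in the results, each pair on its own 6 libraries and interactions on 12, with an intensity trend. Interactions were called at an adjusted p under 0.05 alone. The script was tested on simulated data. Sums, ratios and correlations were computed with Python 3.11.15. Named genes were the 9 members, *H19*, the 3 other pathway genes with the largest called rise and fall in each comparison, and the 3 genes nearest to each member. Of the 51 other pathway genes *Cavin1* was not analysed here. The members, lists and tests were chosen with earlier results of these data known. Alternatives changed the pseudocount (0.1), filter, scaling, libraries per fit, replicate block, minimum fold and single libraries. Protein sequences were not used here.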

Additional observations from a re-analysis of the deposited data

Results flagged for a closer look

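The values below were picked out because an effect differed between groups by a tested interaction (limma, Benjamini-Hochberg adjusted p under 0.05). Groups of 3 libraries were not screened for outlying samples, and 18 values met the rule.

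The change from d0 to d3 in siCtrl cells was higher in BAT than in vWAT for *Acsl1* (by 2.84 on the log2 scale), *Fabp3* (2.5), *Cd36* (1.76), *Fabp4* (1.3), *Lpl* (1.27), *Fabp5* (1.18) and *Angptl4* (1.06), and lower for *Slc27a1* (−0.39) and *Gpihbp1* (−0.84). *Gpihbp1* passed the filter only through vWAT d3 libraries, where it is high, and missed the threshold with no filter (adjusted p = 0.052). The *Slc27a1* call was lost with a pseudocount of 0.1 (limma adjusted p = 0.052). The depots also differ in medium.

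The siH19 effect at d3 was lower in BAT than in vWAT for *Slc27a1* (−0.66), *Acsl1* (−0.47), *Fabp5* (−0.42), *Fabp4* (−0.26) and *Lpl* (−0.18), and higher for *Angptl4* (0.22). The calls of *Fabp4*, *Lpl* and *Angptl4* were lost in some alternatives, as given in the results.

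The siH19 effect in BAT was higher at d3 than at d0 for *Acsl1* (0.90), *Fabp4* (0.78) and *Angptl4* (0.54). *H19*, which is not a member, was itself less reduced at d3 (1.99).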

How the results depend on the processing

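Across 1423 recalculated values of the members, 1313 kept direction and call, 70 lost a call, 15 gained one and 25 changed sign. With no minimum fold, 4 members were called in BAT at d3. With no filter, 1 was called in BAT and 3 in vWAT at d0, where more genes are adjusted for. With all 24 libraries in 1 fit, 3 were called for the depot by siRNA interaction at d3. Leaving out 1 library at a time gave 0 to 2 called in BAT and 3 to 4 in vWAT at d0. The cause was not tested where none is named.

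Samples share replicate numbers, but same-numbered libraries did not deviate together (r −0.143 to 0.088 for the same number, −0.156 to 0.172 for different ones), so the number was not taken as a pairing. With a replicate block, 0 members were called in BAT and 0 in vWAT at d0, and no other member call was lost.

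The sign changes were all in values that were not called. *Fabp5* in vWAT siH19 at d3 gave 0.0013 with median-ratio scaling and −0.041 to 0.017 over left-out libraries, and *Slc27a1* there −0.045 to 0.073. *Fabp3* over left-out libraries gave −0.045 to 0.28 for BAT siH19 d3 against d0, −0.015 to 0.31 for siH19 in BAT at d3 and −0.29 to 0.035 in vWAT at d0. In the depot by siRNA interaction *Fabp3* gave −0.0037 and *Gpihbp1* 0.057 with a pseudocount of 0.1, and −0.065 to 0.28 and −0.21 to 0.074 over left-out libraries. In the day by siRNA interaction *Slc27a1* gave 0.022 with a pseudocount of 0.1 and −0.17 to 0.014 over left-out libraries, and *Fabp5* −0.031 with median-ratio scaling and −0.0051 to 0.14.

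Over all genes, siH19 calls in BAT at d3 were 1071, and 2023 with no minimum fold. In BAT at d0 they were 245, against 35 with no filter, 526 with all libraries in 1 fit, 2 with a replicate block and 395 with no minimum fold. In vWAT at d0 they were 200, against 65, 378 and 2 under the first 3 of these, and at d3 4, against 15 with all libraries in 1 fit and 0 with the block. Without 1 library they were 4 to 74, 37 to 122 and 1 to 5, and 631 to 916 in BAT at d3, lowest without siCtrl replicate 2. The depot by siRNA interaction went from 1451 to 889 without BAT siCtrl replicate 2, 935 without vWAT siCtrl replicate 3 and 929 without vWAT siH19 replicate 1, and the day by siRNA interaction from 1230 to 801 without BAT siCtrl d3 replicate 2. FPKM carry no read counts, so counting error could not be set beside the low values of *Fabp3* and *Gpihbp1*.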
